A study of Mus musculus with 4 samples.

Results

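The genes described here encode proteins that fold secreted and membrane proteins in the endoplasmic reticulum (ER), or that act in the unfolded protein response (UPR), the programme that adjusts this folding capacity. The group was defined by name as Hspa5, Hsp90b1, Calr, Pdia4, Pdia6, Xbp1, Dnajb9, Herpud1, Sdf2l1 and Manf. Every array probe that is not a control spot and carries one of these gene names was taken, which gave 16 probes of 10 genes, out of 61307 probes with 50090 gene names. RNA came from C3H10T1/2 cells, a mouse embryo fibroblast line whose contact-inhibited growth makes it a standard test of chemical transformation. The exposed arrays (3MC+TPA, n = 2) hold RNA of cells given 3-methylcholanthrene (3MC), a carcinogenic polycyclic hydrocarbon, at 2.5 µg/ml for 2 days. After 4 days without an agent, these cells received the tumour promoter TPA, a phorbol ester, at 100 ng/ml over 2 weeks, followed by 4 weeks in normal medium. The control arrays (n = 2) hold RNA of the same line cultured for 6 weeks, and the labels do not say whether a solvent was added to them. After 6 weeks the flasks were divided, per the labels' protocols, into some that were stained to score transformed foci and others for the arrays. The labels do not mention picking of foci, so the RNA may hold transformed and untransformed cells together.

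Proteins entering the ER are bound by the chaperone BiP, by the lectin chaperones and by protein disulfide isomerases until they are folded. When unfolded proteins accumulate, the membrane sensors IRE1, PERK and ATF6 are activated. IRE1 splices Xbp1 mRNA, ATF6 is cut to release a transcription factor, and PERK slows translation while favouring that of ATF4. The factors so made switch on chaperone genes, largely through the ER stress response element (ERSE) in their promoters, and genes for the disposal of misfolded proteins. Fibroblasts that secrete collagen and other matrix proteins keep this machinery at work without added stress.

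The promoters were searched for elements known from UPR genes, and those found, in 5 of the 10 genes, are given here as context for the changes that follow. RefSeq promoter windows (build GRCm38.p6, 250 bases before to 50 after the start) were found for 9 of the 10 genes. The ERSE was searched as CCAAT, 9 bases of any kind and CCACG, on both strands. It occurred in 4 of the 9 genes' windows, against 0.119% of all 32851 windows. Capitals mark the ERSE in these 4 stretches, written 5′ to 3′ on the gene's strand. Hspa5 has 1 at chr2:34772013-34772055 (plus strand), Hsp90b1 has 2 at chr10:86705521-86705668 (minus strand), Calr 1 at chr8:84847063-84847105 (minus strand) and Pdia6 1 at chr12:17266479-17266521 (plus strand).
Hspa5: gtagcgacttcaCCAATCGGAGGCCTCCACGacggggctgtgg
Hsp90b1: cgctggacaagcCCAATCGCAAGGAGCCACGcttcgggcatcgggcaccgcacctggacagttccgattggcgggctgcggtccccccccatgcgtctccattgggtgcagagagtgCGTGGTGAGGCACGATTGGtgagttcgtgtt
Calr: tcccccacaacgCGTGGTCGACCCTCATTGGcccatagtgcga
Pdia6: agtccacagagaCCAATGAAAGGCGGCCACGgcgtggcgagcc
The second ERSE of Hsp90b1 and that of Calr lie on the opposite strand, so they read as their reverse complement here.

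Herpud1 held none of these but 2 other elements. One is the shorter ERSE-II, searched as ATTGG, 1 base of any kind and CCACG, which was in 0.0365% of all windows. The other is an element bound by ATF4, searched as TGATGCAA, which was in 0.895% of all windows. It reads as its reverse complement on this strand. Both were searched on both strands. Neither was found in a window of another member. The ERSE-II stretch is at chr8:94386365-94386399 and the stretch with the ATF4 element at chr8:94386305-94386336, both on the plus strand of GRCm38.p6.
Herpud1 ERSE-II: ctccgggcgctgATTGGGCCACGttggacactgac
Herpud1 ATF4 element: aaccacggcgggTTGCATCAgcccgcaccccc
A match of letters is a description of the window and not evidence of binding. The letters of the UPRE, TGACGTGG, were in none of the 9 windows and in 0.676% of all windows. No exact full-length ERSE, ERSE-II, ATF4 element or UPRE was found in the windows of Pdia4, Xbp1, Dnajb9 and Sdf2l1. Matches with a changed letter were not searched.

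All 16 probes were well above background on all 4 arrays, so each gene has a measured level in both groups. Levels are given on a log2 scale, as processed signal over the 75th percentile of all signals on that array. A level belongs to its probe and is not compared between probes. Groups were compared with limma across 24981 gene names, each read by its brightest probe, with Benjamini-Hochberg adjustment over all of them. From here on, all gene names means these 24981 tested names. In this comparison 15.8% of them passed an adjusted p of 0.05, 7.47% as higher and 8.35% as lower in 3MC+TPA cells. Among the 10 ER genes 1 passed, Herpud1, which was higher, and 4 had an unadjusted p under 0.05, a threshold that 33.7% of all gene names passed. The groups did not overlap for 7 of the 10, with 4 higher and 3 lower, while 63.7% of all gene names did not overlap. The 10 log2 changes lay between -0.57 and 1.22 with a median of -0.01, and the median over all gene names was also -0.01. The labels name separate samples in each group but no separate cultures, and the design text speaks of hybridisation in duplicate. These p-values therefore measure only the spread between arrays, which may be technical.

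**Figure D1:**
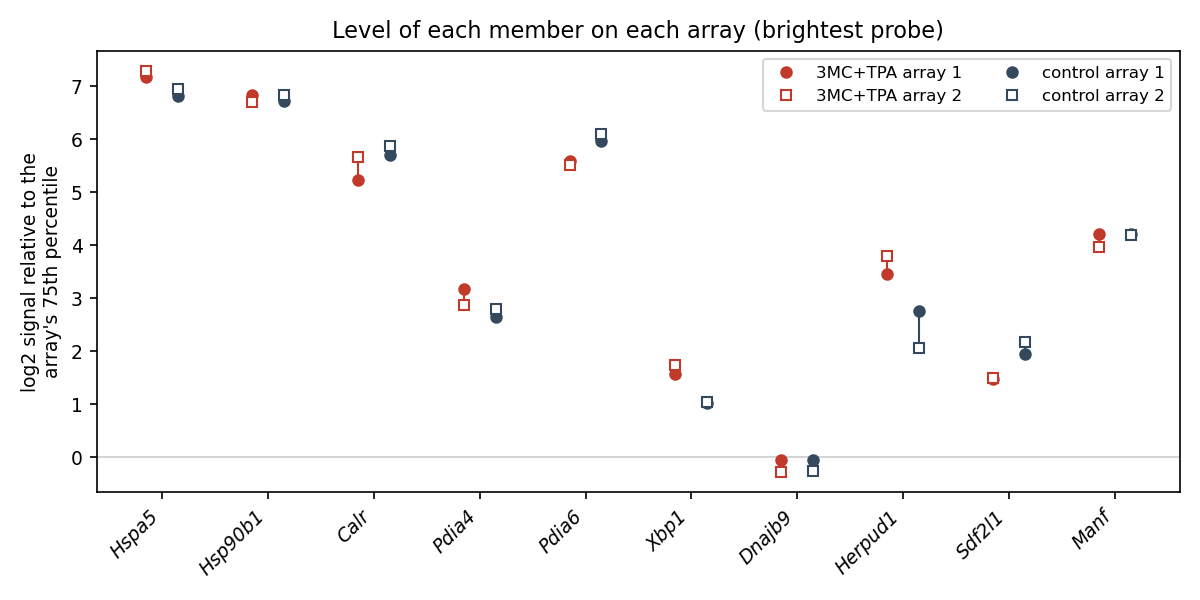
Level of each of the 10 genes on each array (log2 of signal over the 75th percentile of that array; brightest probe), with 3MC+TPA arrays in red left of control arrays in dark blue, filled circles for array 1 and open squares for array 2, and lines joining the 2 arrays of a group. The exposed arrays of Herpud1 (3.46 and 3.79) and Xbp1 (1.57 and 1.74) lie above their control arrays, those of Pdia6 and Sdf2l1 lie below, and those of Hsp90b1, Dnajb9 and Manf overlap them. Heights of different genes come from different probes and are not comparable.

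Herpud1, a membrane protein that helps to organise the ubiquitin ligase complex of ER-associated degradation, had the largest change. Its level was 3.46 and 3.79 on the 3MC+TPA arrays, against 2.75 and 2.06 on the control arrays. Both exposed arrays stood above both controls, and the control arrays were further apart, by 0.69, than the exposed ones. The log2 change was 1.22 ± 0.28 (SE), a 2.34-fold rise (limma adjusted p = 0.046). The change kept its sign in all 17 alternatives, between 0.88 and 1.57, but the adjusted p lay on both sides of 0.05, between 0.0112 and 0.265, and the call ended in 8 of them. It was 0.0501 in the authors' deposited values, 0.115 without 3MC+TPA array 1, 0.182 without 3MC+TPA array 2 and 0.102 without control array 2. A single probe reads this gene. Alternatives that alter only the filter, the choice of probe, the spread estimate or the adjustment therefore could not change its log2 change. Only scaling, background correction, the deposited values and arrays left out could turn its sign. The same holds for the other genes read by 1 probe.

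Xbp1, the transcription factor whose mRNA IRE1 splices, came next. Its level was 1.57 and 1.74 on the 3MC+TPA arrays and at 1.02 and 1.05 on the control arrays. The groups were separate, with little spread between the controls. The log2 change of 0.62 ± 0.16 (SE), or 1.54-fold, did not pass (adjusted p = 0.057), and its 95% interval of 0.22 to 1.02 lay above 0. It was positive in all 17 alternatives and passed in 5, 1 of them without adjustment and among the others normexp background correction (adjusted p = 0.023) and a spread that depends on intensity (adjusted p = 0.034). The gene has 1 probe on the array, a 60-base oligonucleotide shown here because every Xbp1 value here comes from it.
Xbp1 probe: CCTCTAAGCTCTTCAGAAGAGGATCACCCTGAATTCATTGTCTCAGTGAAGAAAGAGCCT
No spliced share of Xbp1 was measured.

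Among the chaperones that bind unfolded chains, none passed the test. Hspa5 encodes BiP, the central Hsp70 of the ER and the usual gauge of a UPR. Its level was 7.17 and 7.29 on the 3MC+TPA arrays, against 6.81 and 6.94 on the control arrays. The groups did not overlap, and the log2 change was 0.36 ± 0.16 (SE), or 1.28-fold (adjusted p = 0.18), with a 95% interval of -0.04 to 0.76. Hsp90b1, the ER form of Hsp90 (GRP94), measured 6.83 and 6.71 on the 3MC+TPA arrays and at 6.72 and 6.84 on the control arrays. These values interleave. Its log2 change was -0.01 ± 0.16 (SE, adjusted p = 0.98), with an interval of -0.40 to 0.39, and the sign was positive in 6 of the 17 alternatives, among them no scaling between arrays (0.34) and quantile normalization (0.10). A 2-fold change of Hsp90b1 in either direction lay outside this interval.

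Dnajb9 (ERdj4), a J-domain cochaperone that delivers substrates to BiP and restrains IRE1, also overlapped. It read -0.06 and -0.29 on the 3MC+TPA arrays, against -0.06 and -0.26 on the control arrays. Its log2 change was -0.01 ± 0.17 (SE, adjusted p = 0.97), within an interval of -0.46 to 0.43, and 0.33 without scaling between arrays. Sdf2l1, which acts with such J-domain proteins to keep BiP substrates soluble, went the other way from Herpud1. Its level was 1.48 and 1.50 on the 3MC+TPA arrays, against 1.95 and 2.16 on the control arrays. Both exposed arrays were below both controls. The log2 change of -0.57 ± 0.16 (SE), or 1.48-fold lower, did not pass (adjusted p = 0.076), with an interval of -0.98 to -0.16. It was negative in all 17 alternatives, -0.22 at the smallest, and passed in 3 of them, 1 without adjustment.

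Calr encodes calreticulin, the soluble lectin chaperone that binds calcium and monoglucosylated glycoproteins. It read 5.23 and 5.66 on the 3MC+TPA arrays, against 5.71 and 5.88 on the control arrays. The exposed arrays were lower but 0.43 apart, and the log2 change was -0.35 ± 0.21 (SE, adjusted p = 0.30). Without 3MC+TPA array 1 the change was -0.13, and without scaling between arrays the change was 0.0014.

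Neither of the disulfide isomerases, which form and rearrange disulfide bonds, passed the test. Pdia4 (ERp72) read 3.18 and 2.87 on the 3MC+TPA arrays, against 2.64 and 2.79 on the control arrays. The lowest exposed array was just above the highest control, and the log2 change was 0.31 ± 0.18 (SE, adjusted p = 0.30). It was 0.15 without 3MC+TPA array 1, 0.46 without 3MC+TPA array 2 and 0.65 without scaling between arrays, and passed in none of these. Pdia6 (P5), which also attenuates IRE1 and PERK signalling, read 5.58 and 5.51 on the 3MC+TPA arrays, against 5.97 and 6.09 on the control arrays. The groups were well separated, with Pdia6 lower in exposed cells by a log2 change of -0.48 ± 0.15 (SE), or 1.40-fold, which did not pass (adjusted p = 0.097). Its interval was -0.87 to -0.09. The sign held in all 17 alternatives, and the gene passed in 3 of them, 1 without adjustment.

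Manf, a small protein of the ER lumen that is secreted under stress and stabilises BiP complexes, read 4.21 and 3.96 on the 3MC+TPA arrays, against 4.21 and 4.19 on the control arrays. The values overlap. Its log2 change was -0.12 ± 0.17 (SE, adjusted p = 0.67) with an interval of -0.54 to 0.31, and it was 0.23 without scaling between arrays. Leaving out scaling moved the median change of all gene names by 0.35, so that the signs of Hsp90b1, Calr, Dnajb9 and Manf turned, while those of Herpud1, Xbp1, Hspa5, Pdia4, Pdia6 and Sdf2l1 did not.

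**Figure D2:**
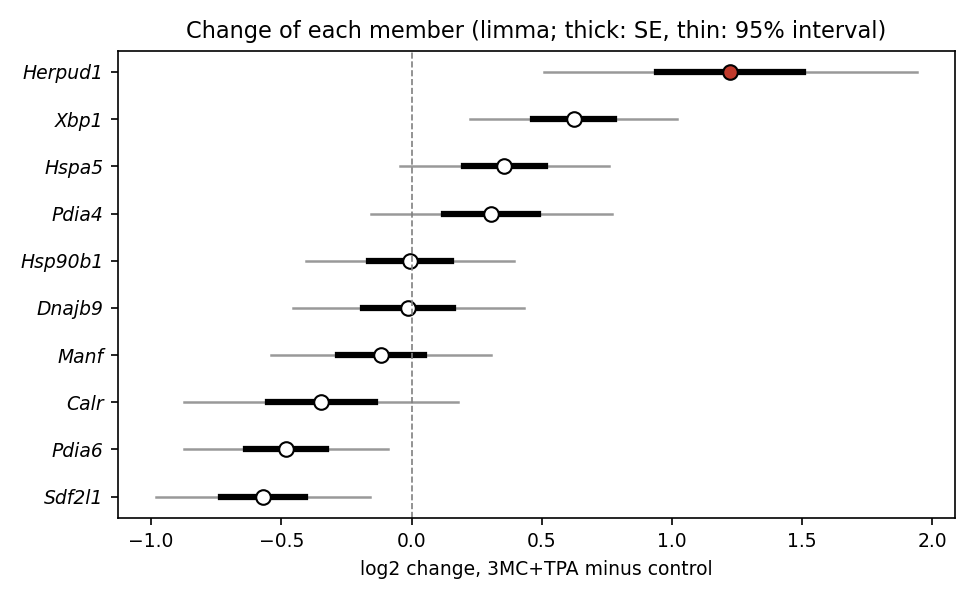
Log2 change of each gene, 3MC+TPA minus control (circle), with the standard error of the limma fit (thick bar) and the 95% interval (thin bar); the filled circle passed an adjusted p of 0.05. Herpud1 is at 1.22 and Xbp1 at 0.62, the other 8 lie between -0.57 and 0.36, and the intervals of Herpud1, Xbp1, Pdia6 and Sdf2l1 do not cross 0.

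More than 1 probe read 4 of the 10 genes, and probes of a gene share its RNA and are not replicates. Fitted on all probes, where 15.5% of 32107 passed, the 2 probes of Hsp90b1 gave log2 changes of -0.01 and 0.0033. The second probe of Calr gave -0.45 beside -0.35 for the brightest. For Pdia6 the 3 probes gave -0.48, -0.12 and -0.36, all lower in exposed cells and with groups that did not overlap in any of them, but differing in size. The probe with -0.36 is also annotated to a predicted transcript of another accession. The 3 probes of Dnajb9 gave -0.01, -0.13 and 0.04, each with overlapping groups. None of these 10 probes passed, and the adjusted p of the brightest Pdia6 probe was 0.10.

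**Figure D3:**
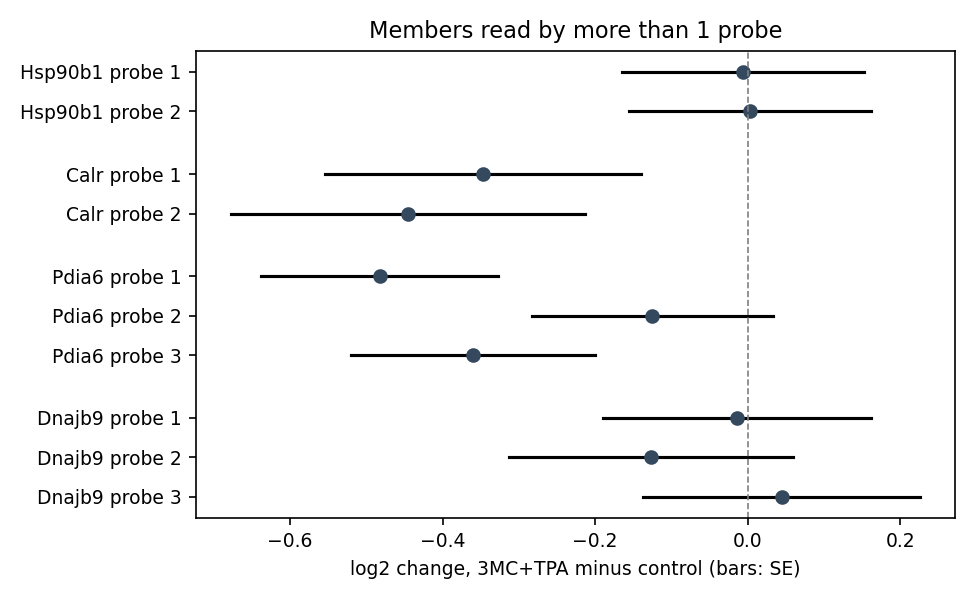
Log2 change of every probe of the 4 genes read by more than 1, 3MC+TPA minus control, with standard errors of the fit over all probes and probe 1 the brightest. Both Calr probes and all 3 Pdia6 probes lie below 0, and those of Hsp90b1 and Dnajb9 lie within 0.13 of 0.

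Other genes of the secretory pathway were read for comparison, from 6 lists of 136 genes. Of 32 other ER folding factors tested, 1 rose and 1 fell, with a median log2 change of 0.01, where 15.8% of all gene names passed. Pdia5, a disulfide isomerase, rose 2.44-fold (levels 2.19 and 2.04 on the 3MC+TPA arrays, 1.04 and 0.62 on the control arrays, adjusted p = 0.018). Prdx4, the peroxiredoxin that oxidises disulfide isomerases, fell 2.26-fold (3.52 and 3.47 on the 3MC+TPA arrays, 4.61 and 4.73 on the control arrays, adjusted p = 0.011). Neither passed without 3MC+TPA array 1 or without 3MC+TPA array 2. The large chaperone Hyou1 changed by 0.29, the lectin calnexin (Canx) by -0.05, the isomerases P4hb and Pdia3 by 0.29 and -0.15, the cochaperone Dnajc3 by -0.09 and Creld2, a known UPR target, by -0.15 (log2, none past the threshold). Dnajb11 was not well above background on any array and was not tested.

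Among 23 genes of ER-associated degradation, the pathway Herpud1 serves, none passed with limma, against 15.8% of all gene names. An unadjusted p under 0.05 was reached by 5, and the per-gene test that the design text names called 3 unadjusted and 0 after Benjamini-Hochberg adjustment. The median was 0.19 and 18 of the 23 log2 changes were positive, as were 12354 of the 24981 over all gene names. The largest was that of Edem1, which hands misfolded glycoproteins to the pathway, at 0.73 ± 0.22 (SE, adjusted p = 0.086). The ligase Syvn1 (HRD1) changed by 0.40 and its partner Sel1l by 0.25.

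Of 17 UPR sensors and regulators, 1 rose, 0 fell and the median was 0.15, where 15.8% of all gene names passed. Eif2ak3, which encodes PERK, was at 0.23 and 0.29 on the 3MC+TPA arrays, against -0.50 and -0.67 on the control arrays. This is a 1.79-fold rise (adjusted p = 0.027), and with any 1 of the 4 arrays left out it did not pass (adjusted p between 0.053 and 0.12). The changes of Atf6, at 0.56 ± 0.17 (SE, adjusted p = 0.087), and of Ern1, which encodes IRE1, at 0.46 ± 0.16 (SE, adjusted p = 0.12), did not pass. Atf6b, the paralogue of Atf6, had a negative change of -0.36 ± 0.17 (SE, adjusted p = 0.21), which did not pass either.

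The list for the arm downstream of PERK had the most calls of the 6 lists. PERK activity was not measured, and whether these changes follow from PERK was not tested. Of 16 genes of this list, 7 rose and 1 fell, with a median of 0.54, where 15.8% of all gene names passed. Atf3, a stress-induced repressor, rose 5.04-fold, with levels of 3.22 and 3.28 on the 3MC+TPA arrays against 0.66 and 1.18 on the control arrays (adjusted p = 0.0045). Chac1, which degrades glutathione, rose 3.99-fold (4.04 and 4.85 on the 3MC+TPA arrays, 2.69 and 2.21 on the control arrays, adjusted p = 0.020). The pseudokinase gene Trib3 rose 2.92-fold with exposed arrays 0.94 apart (2.64 and 3.58, against 1.54 and 1.59 on the control arrays, adjusted p = 0.038). Atf4 itself rose 2.01-fold, with 4.00 and 4.39 on the 3MC+TPA arrays and 3.17 and 3.22 on the control arrays (adjusted p = 0.029). Nupr1, Ppp1r15a and Asns were the other risers.

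The gene that fell was the cystine transporter Slc7a11, at -4.12 and -4.67 on the 3MC+TPA arrays against -2.19 and -1.49 on the control arrays (5.88-fold, adjusted p = 0.0093). The dimmest spots well above background on the 3MC+TPA arrays were at -4.82 and -4.80. Its exposed values lie near this floor, so the size of the fall is uncertain. Of its 3 probes only the brightest was read here. Ddit3, which encodes the apoptosis factor CHOP, overlapped between groups, at 2.60 and 3.41 on the 3MC+TPA arrays and 2.91 and 3.04 on the control arrays (log2 change 0.03 ± 0.30, SE, adjusted p = 0.96). The count of 8 was 4 without 3MC+TPA array 1, 1 without 3MC+TPA array 2, 4 without control array 1 and 3 without control array 2. Atf3 passed in each of the 4, and Atf4, Ppp1r15a and Asns in none.

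Genes of the translocon and N-glycosylation included 1 of 28 that was higher and 1 lower, with a median of 0.10. Ganab, the glucosidase that trims glycans for calnexin and calreticulin, rose 1.57-fold (adjusted p = 0.045), and Ssr4, a subunit of the translocon-associated complex, fell 2.20-fold (adjusted p = 0.017). Ganab did not pass with any array left out (adjusted p between 0.12 and 0.17), and Ssr4 passed in 1 of the 4. Heat shock genes of the cytosol and mitochondria had 2 of 16 higher, 1 lower and a median of 0.07. Beside the counts of both lists, 15.8% of all gene names passed. Hspb1, the small heat shock protein, was at 4.08 and 4.61 on the 3MC+TPA arrays, against 1.16 and -1.23 on the control arrays, which were far apart (log2 change 4.38 ± 0.78, SE, adjusted p = 0.024; 3.19 without control array 2, and adjusted p = 0.096 and 0.12 without 3MC+TPA arrays 1 and 2). The cochaperone Dnajb1 rose 2.07-fold (adjusted p = 0.023; past the threshold with 1 of the 4 arrays left out). Hspa1a, the inducible Hsp70, fell 4.44-fold (adjusted p = 0.0024), and passed with each array left out. It has a near-identical neighbour, Hspa1b, that no probe here names, and the 2 may not be told apart.

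**Figure D4:**
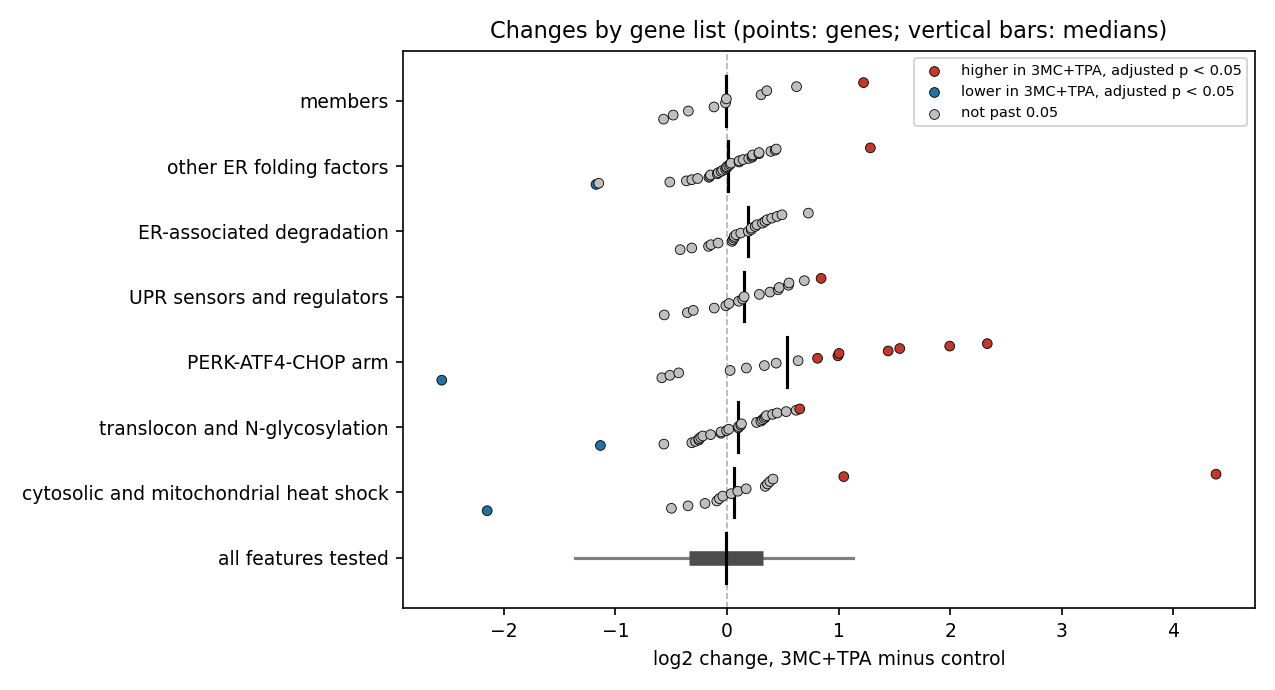
Log2 change of every tested gene of the 10 ER genes and of the 6 lists, 3MC+TPA minus control (points; red passed as higher, blue as lower, grey did not pass), with medians as vertical bars and, in the lowest row, the middle 50% (thick) and 90% (thin) of all gene names tested. The PERK-ATF4-CHOP arm has its median at 0.54 and 7 red points, the 10 ER genes have theirs at -0.01 and 1 red point, and 90% of all gene names lie between -1.36 and 1.12.

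The promoter elements printed above were set against the changes of all genes that carry them. Of 18 tested genes with an ERSE in the window, 4 of them members, 2 were higher and 1 lower (16.7%, median 0.02), against 18.7% of the 10425 tested genes with a window. Those that passed were Zfp57 and Gm6566, higher, and Spats2l, lower. On the 3MC+TPA arrays Spats2l (-5.45 and -6.98) lay below the dimmest spots well above background (-4.82 and -4.80). It was tested only through the control arrays, so the size of its fall is uncertain. Of 8 tested genes with an ERSE-II, Herpud1 was higher and Rnf151 lower. Rnf151 lay at the same floor on the 3MC+TPA arrays (-4.81 and -4.83). Of 103 tested genes with the UPRE, 7 were higher and 8 lower (14.6%, median 0.08). Of 81 tested genes with the ATF4 element, 19 were higher and 8 lower (33.3%, median 0.18). The higher ones included Herpud1, Chac1, Nupr1 and Atf3, and the lower ones Slc7a11. Larger log2 changes belonged to other genes of this set in both directions. Casz1 (2.90) and Il20rb (2.53) were higher, and Gm2046 (-7.49) and Gm4027 (-7.19) were lower. Casz1 on the control arrays (-6.14 and -6.31) lay below the dimmest spots well above background, as did Gm4027 on the 3MC+TPA arrays (-6.14 and -6.76). Both genes were tested only through the group where they were high, so the sizes of their changes are uncertain. These shares are descriptions, and the genes with an element were not compared with the rest by a test. The shares count some genes that lay below the dimmest spots well above background in 1 group. Among these were Phyh (-7.07 and -7.10 on the 3MC+TPA arrays) and Gm3414 (-5.68 and -6.77 on the control arrays). Such genes were tested only through their brighter group, and the same filter was used for the 18.7%. The genes named from these sets were named after their values were seen.

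The arrays themselves were alike in spots above background and in saturation but differed in brightness. Between 52.1% and 52.7% of spots were well above background on each, and no spot was saturated. The 75th percentile of signal, which the scaling sets equal, was 701.3 and 747.2 on the 3MC+TPA arrays. On the control arrays it was 543.1 and 595.2. All 6 fibroblast markers read (Col1a1, Col1a2, Vim, Fn1, Thy1 and Pdgfrb) were well above background on all arrays, with Thy1 higher and Pdgfrb lower in 3MC+TPA cells. For Thy1 the control arrays were far apart, at 2.97 and 0.85, against 4.77 and 5.02 on the 3MC+TPA arrays (limma adjusted p = 0.046). Of 12 markers of leukocytes, epithelium and endothelium, 4 were tested and none passed (limma; 1, Cd68, had an unadjusted p under 0.05). In RNA of a whole culture, fewer cells of a kind and less RNA per cell cannot be told apart. The exposed arrays and the control arrays lay at different positions of 1 slide, so position and group cannot be told apart.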

How the data were processed

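Spot intensity values come from 1-colour (Cy3) scans read by version 10.7.3.1 of Feature Extraction, per the file headers, which also record background subtraction and detrending within each array. The authors' deposited table holds log2 values, which matched log2 of processed signal over that array's 75th percentile within 0.02 for at least 61237 probes per array; higher values mean brighter spots and genes are not centred, with column medians of -4.39 and -4.35 for the 3MC+TPA arrays and -4.29 and -4.31 for the control arrays. Main values were computed from the scanner files in this way, without control spots and outlier spots (31 and 68 on the 3MC+TPA arrays, 42 and 20 on the control arrays). For the probes described, they differed from the deposited values by at most 0.015.

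A gene name was read by its brightest probe and tested when this was well above background on both arrays of a group. Groups, taken from sample titles, were compared with limma 3.58.1 in R 4.3.3 (2-sided, no covariates, Benjamini-Hochberg adjustment, threshold 0.05). Of the names tested, 62 were fitted without an array that had no value. On simulated data (24919 features, 200 changed) the fit recovered 1 of 50 changes of 2-fold and 28 of 50 of 4-fold. In the data 3952 gene names passed, so the adjustment was stricter in the simulation. Smaller changes passed in the data, such as that of Ganab at 1.57-fold. The recovered counts therefore do not give the power of the test on the data. The number of arrays limits the precision. Alternatives covered scaling, background correction, filters, probe choice, the spread estimate, the methods' t-test, a replicate block and each array left out. The genes and lists were chosen with earlier results of these data known. Beside the 10 genes, the text names up to 3 called genes per list with the largest change, or else the largest change, and a fixed set of UPR genes; Atf6b, Nupr1, Ppp1r15a, Asns, Cd68 and the genes named by promoter element were added after their values were seen. Sequences are from RefSeq tables of GRCm38.p6 and from the probe column of the files; the array was designed on mm9, and no probe coordinates are given.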

Additional observations from a re-analysis of the deposited data

How the results depend on the processing

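Of 170 values of the 10 genes' log2 changes under 17 alternatives, 138 kept their sign and their side of the threshold, 12 came to pass it, 8 no longer passed it and 12 turned sign. Herpud1 did not pass in the deposited values (1.22), without a filter on dim probes (1.22), by the methods' t-test with and without adjustment (1.22 each) and with a replicate block (1.22, adjusted p = 0.061); with an array left out its change was 0.88 to 1.57. Xbp1 passed without scaling (0.97), with normexp (0.60), and at 0.62 among probes well above background on all 4 arrays, with an intensity trend and by the unadjusted t-test. Pdia6 and Sdf2l1 passed with normexp (-0.48 and -0.56), an intensity trend (-0.48 and -0.57) and the unadjusted t-test (-0.48 and -0.57), and Hspa5 without scaling (0.71). Without scaling the signs of Hsp90b1 (0.34), Calr (0.0014), Dnajb9 (0.33) and Manf (0.23) turned. Hsp90b1 also turned with quantile normalization (0.10), normexp (0.017) and its second probe (0.0033). With an array left out Hsp90b1 lay between -0.069 and 0.057, Dnajb9 between -0.13 and 0.10 and Manf between -0.24 and 0.0077. The cause of these shifts was not tested. Alternatives that alter only the filter, the spread estimate, the block or the adjustment leave a log2 change as it was. Signs kept in those are therefore no separate evidence.

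The number of ER genes that passed, 1, was 3 without scaling, 4 with normexp, 0 in the deposited values, 2 among probes well above background on all 4 arrays, 0 without a filter, 4 with an intensity trend, 0 by the adjusted and 3 by the unadjusted t-test, 0 with the replicate block, and 0 to 1 with an array left out. Their probes gave 3, 4, 2, 0, 4, 0, 3 and 0 in the same settings other than the deposited values, and 0 to 1 with an array left out. Over all gene names 3952 passed, and 6723 without scaling (79.1% of them higher, against 47.2%), 907 without a filter, 23 by the adjusted t-test and 1183 to 3328 with an array left out. With normexp 5080 of all gene names passed and with an intensity trend 5213, so these settings called more of all names too. The replicate numbers were not shown to pair the arrays, as differences of same-numbered arrays correlated by 0.0028 over 24919 gene names.

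Calls per list, in the order given, without scaling were 6 for other folding factors, 7 for ER-associated degradation, 7 for UPR sensors, 8 for the translocon and 6 for heat shock. With normexp they were 4, 1, 3 and 5 for the first 4 of these, and with an intensity trend 4, 1, 2 and 6. Without a filter they were 1 for folding factors, 0 for UPR sensors, the PERK arm and the translocon, and 1 for heat shock. By the adjusted t-test folding factors, UPR sensors, the PERK arm, the translocon and heat shock had 0, and by the unadjusted t-test folding factors had 4, ER-associated degradation 3, UPR sensors 4 and the translocon 7. UPR sensors had 2 among probes well above background on all 4 arrays, and the translocon 1 with the mean of probes, the second probe and the replicate block. With an array left out the ranges were 0 to 2 for folding factors, 0 to 0 for UPR sensors, 1 to 4 for the PERK arm, 0 to 1 for the translocon and 1 to 3 for heat shock.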
